A study of Mus musculus with 6 samples.

Results

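Late-onset Alzheimer's disease has been linked by human genetics to genes that microglia express, and 10 mouse orthologues of such genes were examined here in N9 microglia, out of 54532 genes counted. The members were taken by name: the phosphatase gene Inpp5d, the phospholipase gene Plcg2, the actin regulator gene Abi3, the membrane traffic genes Bin1, Picalm, Cd2ap and Sorl1, the lipid transporter gene Abca7, the kinase gene Ptk2b and the progranulin gene Grn. All 10 were in the count table and all 10 passed the filter on low counts. N9 cells are an immortalized line of mouse brain microglia. Lipopolysaccharide (LPS), from the outer membrane of gram-negative bacteria, activates microglia through Toll-like receptor signalling. RNA from 3 samples of untreated control cells and 3 samples of cells kept with LPS at 1 µg/ml for 6 h was sequenced. Both groups were of the same line in RPMI 1640 medium with fetal bovine serum. The labels do not say whether the samples were separate cultures, so the p-values measure the spread between these samples, which may be technical. The RNA came from whole cultures, where fewer cells with a transcript and less of it per cell cannot be told apart.

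Microglia take up debris, lipoprotein particles and amyloid beta, and signal through receptors that pair with adaptors carrying tyrosine activation motifs. Syk kinase acts next, phospholipase C gamma and phosphoinositide 3-kinase follow, and the lipid phosphatase encoded by Inpp5d removes the product of the latter. The other members act on actin, on clathrin-coated vesicles, on sorting between endosomes and the Golgi, on lipid export and in lysosomes.

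The total count per library was 16363767 to 17956772. In CPM, the counts scaled to a common TMM-normalized library size, 3 counts were worth 0.161 to 0.190. Of 15 microglial and myeloid markers, 13 or 14 were above 3 counts in each library, with a summed level of 2774 to 2857 CPM in control and 2993 to 3112 CPM in LPS libraries. Sall1, a transcription factor of microglia in the brain, had at most 1 count and P2ry12, a purinergic receptor, 3 to 6, so these defining markers were at or near 0. The 22 hepatocyte markers summed to 5.60, 28.0 and 34.8 CPM in control replicates 1, 2 and 3 and to 5.24 to 7.0 CPM with LPS. Albumin (Alb) had 2, 155 and 292 counts in the controls and 2, 0 and 0 with LPS. The 6 fibroblast markers, collagens among them, were split another way, with 11.8, 0.340 and 7.69 CPM in control replicates 1, 2 and 3 and 7.99, 0.488 and 0.426 CPM in LPS replicates 1, 2 and 3. Control replicates 2 and 3 thus stood apart by hepatocyte transcripts, and control replicates 1 and 3 and LPS replicate 1 by fibroblast transcripts. The members are also given without either set of libraries where that changes a call or moves a called value more than 1.5-fold, on the assumption that the 1 control left varied like the other libraries.

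In LPS-stimulated versus control N9 microglia, 4 of the 10 members fell, namely Inpp5d, Plcg2, Sorl1 and Abca7, and 1 rose, Ptk2b (edgeR quasi-likelihood test, adjusted p under 0.05 over the 12296 genes tested). Among all genes tested 15.7% fell and 18.7% rose. No member was a differentially expressed gene (DEG), which also needs an absolute log2 fold change (log2FC) over 1.5 and which 2.65% of the tested genes were. The largest absolute log2FC of a member was 0.55 in edgeR and in DESeq2, so 0 members were DEG by either tool, also at an unadjusted p under 0.05. The members' log2FC ran from -0.55 to 0.12 with a median of -0.13, beside a median of 0.0036 over all genes tested. When libraries were scaled by total counts, 6 members fell and 0 rose, while 27.2% of all genes tested fell. Of the calls over all genes 31.3% were then higher, where TMM scaling gave 54.3%. The libraries of the groups did not overlap for 8 of the 10 members, against 45.3% of all genes tested. The exceptions were Sorl1 and Abi3. Calls for Inpp5d and Plcg2 held in all 6 fits that left out 1 library, whereas those for Sorl1 and Abca7 held in 2 of the 6 and that for Ptk2b in 0 of the 6.

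**Figure D1:**
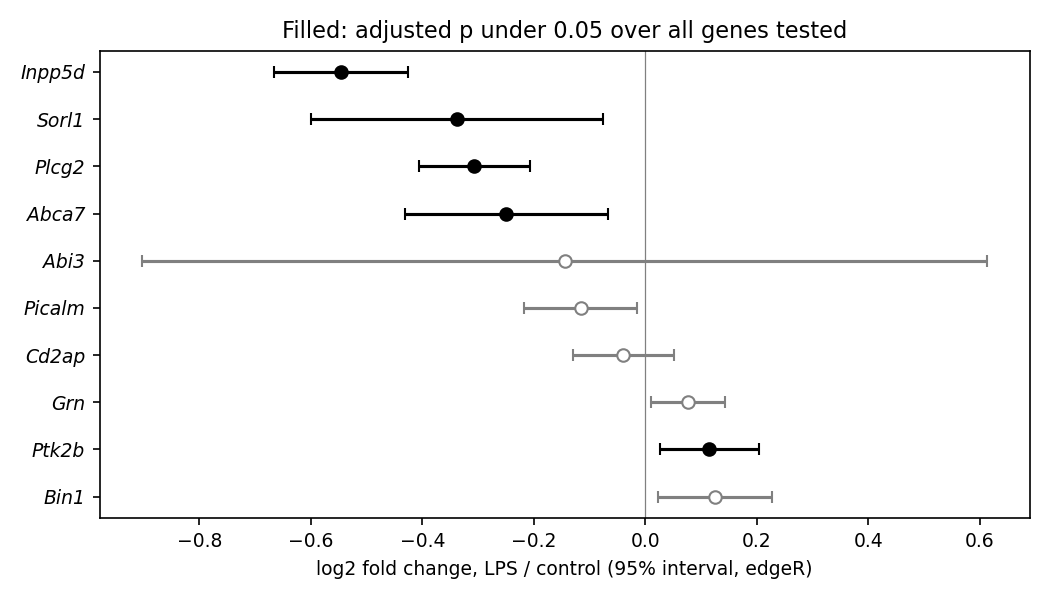
Log2 fold change of each Alzheimer risk gene in LPS-stimulated over control N9 microglia (horizontal axis) with its 95% interval from edgeR, 3 libraries per group, where a filled point marks an adjusted p under 0.05 over all genes tested. The points run from -0.55 for Inpp5d to 0.12 for Bin1, and the interval of Abi3, from -0.90 to 0.61, is the widest.

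The members differed far more in level than in response. Levels between genes are given per length, as RPKM, which is CPM divided by the exonic length in kilobases that the count table gives, here for control cells. Grn stood first with 297 RPKM, followed by Bin1 with 64.3, Plcg2 with 55.2, Ptk2b with 28.7 and Inpp5d with 26.1. Picalm followed with 10.6, Cd2ap with 7.44, Abca7 with 7.21, Sorl1 with 2.60 and Abi3 with 0.23. On the tabulated length the order was the same with LPS, and no neighbours in it overlapped between libraries in either group. With the median length of the coding transcripts in place of the exonic length, an alternative added after the data were seen, the ranks in control cells were the same. The libraries of Plcg2 and Ptk2b (55.2 and 55.0) and of Inpp5d and Picalm (50.3 and 48.8) then overlapped in control cells, and Grn stood at 993, Bin1 at 83.5, Cd2ap at 27.7, Abca7 at 7.34, Sorl1 at 2.75 and Abi3 at 0.404. The value of Grn rests on a median of 1040 bases over 4 coding transcripts, against 3474 bases tabulated. Whether those transcripts are annotated in full was not examined. With LPS the order of the means on coding transcript length was not the same, since Ptk2b (59.6) and Picalm (45.0) stood above Plcg2 (44.6) and Inpp5d (34.4). The LPS libraries of Picalm and Plcg2 overlapped on that length, so these members were not set apart. The count table gives Bin1 2451 bases where GENCODE M21 gives 4117 exonic bases. With the latter, also added after the data were seen, Bin1 stood at 38.3 RPKM in control cells and 41.7 with LPS, between Plcg2 and Ptk2b in both groups.

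**Figure D2:**
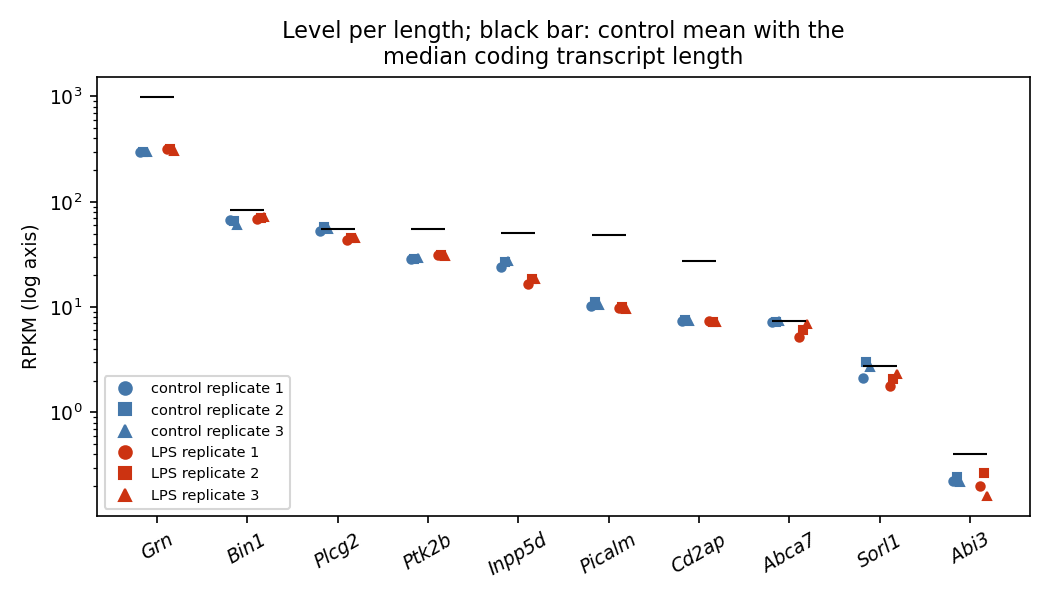
Level of each member per library in RPKM on a log axis, controls in blue and LPS in red, with a black bar for the control mean when the median coding transcript length is used instead. Grn lies above all other members at 297 RPKM in control cells and Abi3 below them at 0.23.

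Inpp5d, whose product SHIP1 dephosphorylates the lipid made by phosphoinositide 3-kinase, had the largest decrease of the members. It (ENSMUSG00000026288) lies on chromosome 1 of GRCm38 from 87620312 to 87720507, plus strand. Its counts were 3157, 3592 and 3837 for control cells and 2001, 2297 and 2303 for LPS-stimulated cells, or 184, 204 and 206 against 127, 140 and 140 CPM. Every LPS library was lower than every control library. The mean of 198 ± 12.1 CPM in control and 136 ± 7.70 with LPS (SD, n = 3) gave a log2FC of -0.55 (SE 0.056, edgeR adjusted p = 2.08e-06), which left 68.5% of the control level (95% interval 63.1% to 74.4%). Its absolute log2FC was larger than those of 86.0% of the genes tested. The call held under all 18 alternatives, with log2FC from -0.64 to -0.44.

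Plcg2, the phospholipase C gamma enzyme of blood cells that cleaves a membrane phosphoinositide into second messengers, also fell. The gene (ENSMUSG00000034330) lies on chromosome 8 from 117498291 to 117635142, plus strand. It had 3863, 4349 and 4453 counts in control and 2949, 3203 and 3170 in LPS libraries, which is 226, 247 and 240 against 187, 195 and 193 CPM. Again all LPS libraries were below all control libraries. The log2FC was -0.31 (SE 0.046, edgeR adjusted p = 0.000107), and 80.8% of the control level was left (95% interval 75.5% to 86.6%). Of the 18 alternatives, 17 kept the call. The one that lost it tested whether the change exceeded 1.2-fold (edgeR glmTreat, adjusted p = 0.316), a test that Inpp5d passed (adjusted p = 0.000218).

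**Figure D3:**
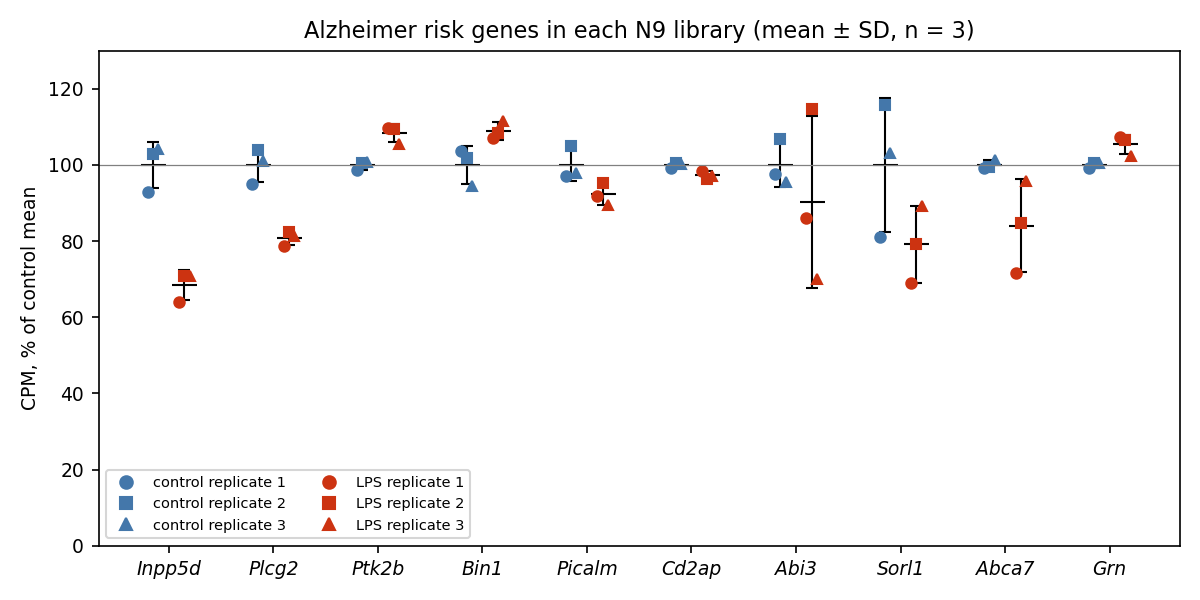
CPM of each member in each library as a percentage of its control mean, controls in blue and LPS in red, with mean and SD (n = 3). Inpp5d at 68.5% and Plcg2 at 80.8% of control lie clear of their control libraries, while Sorl1 and Abi3 overlap.

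The start regions of the 4 members that fell are shown because these members share a direction. Each window runs from 250 bases before to 50 after a start site that RefSeq gives on GRCm38.p6, and RefSeq windows were found for 7 of the 10 members. Both strands were searched for the letters TGANTCA (AP-1), GAAANNGAA (interferon-stimulated response element), GAGGAAG (PU.1) and GGGCGG (GC box of SP1 and KLF factors) and for an NF-kappa B motif. Capitals mark matches, and no matches in the members' windows share a base. The windows are Inpp5d chr1:87620062-87620361 and Plcg2 chr8:117498025-117498324, both on the plus strand, Sorl1 chr9:42124248-42124547 on the minus strand and Abca7 chr10:79996244-79996543 on the plus strand.
Inpp5d: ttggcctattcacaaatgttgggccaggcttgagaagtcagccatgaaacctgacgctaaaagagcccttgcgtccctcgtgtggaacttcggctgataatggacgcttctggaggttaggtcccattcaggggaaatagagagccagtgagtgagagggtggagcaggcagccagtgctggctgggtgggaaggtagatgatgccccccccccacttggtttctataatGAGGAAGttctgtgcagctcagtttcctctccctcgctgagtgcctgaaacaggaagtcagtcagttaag
Plcg2: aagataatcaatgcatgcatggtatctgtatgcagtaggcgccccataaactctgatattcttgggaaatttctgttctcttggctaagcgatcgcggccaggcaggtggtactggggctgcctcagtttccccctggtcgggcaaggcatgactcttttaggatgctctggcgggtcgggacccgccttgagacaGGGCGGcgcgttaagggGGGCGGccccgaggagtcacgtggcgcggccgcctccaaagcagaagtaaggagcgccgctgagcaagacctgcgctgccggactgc
Sorl1: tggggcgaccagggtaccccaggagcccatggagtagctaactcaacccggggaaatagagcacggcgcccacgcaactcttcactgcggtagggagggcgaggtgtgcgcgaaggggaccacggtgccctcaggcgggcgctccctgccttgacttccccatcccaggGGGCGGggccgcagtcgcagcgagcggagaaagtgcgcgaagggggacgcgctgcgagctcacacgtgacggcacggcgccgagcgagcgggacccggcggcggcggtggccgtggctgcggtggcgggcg
Abca7: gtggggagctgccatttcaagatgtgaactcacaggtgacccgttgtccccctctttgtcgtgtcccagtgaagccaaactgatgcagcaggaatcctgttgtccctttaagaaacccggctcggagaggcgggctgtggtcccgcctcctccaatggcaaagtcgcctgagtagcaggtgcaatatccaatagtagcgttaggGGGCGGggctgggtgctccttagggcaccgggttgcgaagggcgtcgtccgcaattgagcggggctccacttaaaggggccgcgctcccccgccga

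Of these 4 windows, that of Inpp5d held the PU.1 letters, from -20 to -14 relative to the start site, and those of Plcg2, Sorl1 and Abca7 held the GC box, in Plcg2 at 2 places. Over the 8 windows of the members, counting a second start of Sorl1, the GC box was in 6, the PU.1 letters in 2 (Inpp5d and Picalm), the interferon-stimulated response element in 1 (Picalm), the NF-kappa B motif in 1 (Grn) and AP-1 in 0. Among all 32851 windows the GC box was in 35.7%, PU.1 in 13.6%, the interferon-stimulated response element in 8.56%, NF-kappa B in 8.46% and AP-1 in 7.81%. A match describes the letters only.

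Around Inpp5d and Plcg2, receptor-proximal and phosphoinositide signalling genes moved both ways. Of 34 tested genes of this list, 7 rose, 9 fell and 18 were not called, with a median log2FC of -0.04. Over all genes tested, the background shares for this and the later lists were 18.7% rising and 15.7% falling. Scaling by total counts gave 6 higher and 14 lower, where 27.2% of all genes tested fell. Syk, the kinase upstream of Plcg2, rose from 157 ± 4.15 to 336 ± 8.20 CPM (log2FC 1.10, edgeR adjusted p = 3.75e-11). Pik3r5, a regulatory subunit of phosphoinositide 3-kinase gamma, rose by a log2FC of 0.75, and Blnk, an adaptor that binds phospholipase C gamma, by 0.59. Rasgrp3, an exchange factor that responds to the diacylglycerol made by phospholipase C, fell from 367 ± 12 to 150 ± 5.82 CPM (log2FC -1.29, edgeR adjusted p = 1.17e-11). Pik3cd, the delta catalytic subunit, fell with a log2FC of -0.63, and Trem2, a microglial lipid receptor, with -0.52. The close relatives fell too, Inppl1 (SHIP2) with a log2FC of -0.14 (edgeR adjusted p = 0.0206) and Plcg1 with -0.40 (edgeR adjusted p = 0.00034).

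Ptk2b, the calcium-responsive focal adhesion kinase PYK2, was the member that rose. It (ENSMUSG00000059456) lies on chromosome 14 from 66153257 to 66281052, minus strand. Its level was 210, 214 and 214 CPM in control and 233, 233 and 224 CPM in LPS libraries. The groups did not overlap, but the difference was small, at 108% of control (95% interval 102% to 115%, log2FC 0.11, SE 0.042, edgeR adjusted p = 0.0458). The call was lost when any 1 library was left out (adjusted p from 0.0502 to 0.131, log2FC from 0.094 to 0.13), with DESeq2 (adjusted p = 0.0572) and when libraries were scaled by total counts (log2FC 0.017, adjusted p = 0.785). It was also lost without the controls with hepatocyte transcripts (log2FC 0.14, adjusted p = 0.158) and without the libraries with fibroblast transcripts (log2FC 0.085, adjusted p = 0.349).

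Among 21 tested focal adhesion and Src kinase genes, 9 rose, 4 fell and 8 were not called (background shares 18.7% and 15.7%). The median log2FC was 0.09, and 6 were higher and 6 lower when scaled by total counts. The tyrosine kinase gene Src was a DEG and rose from 19.3 to 56.9 CPM (log2FC 1.56, edgeR adjusted p = 9.11e-11). Bcar1, the p130Cas scaffold, rose by a log2FC of 0.95. Ptpn6, the phosphatase SHP-1, fell from 406 to 277 CPM (log2FC -0.55), and Fyn (-0.21) and Csk (-0.13), the kinase that inhibits Src, fell by less. Ptk2, the focal adhesion kinase itself, had a log2FC of -0.0084 (edgeR adjusted p = 0.915, 95% interval -0.11 to 0.094).

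The endocytic members Bin1, Picalm and Cd2ap were not called. Bin1, which bends membranes (ENSMUSG00000024381, chromosome 18 from 32377217 to 32435736, plus strand), had 163, 160 and 149 CPM in control and 169, 171 and 176 CPM in LPS libraries. The LPS libraries were all higher, at 109% of control (95% interval 102% to 117%, log2FC 0.12, edgeR adjusted p = 0.0569). Picalm, a clathrin assembly protein (ENSMUSG00000039361, chromosome 7 from 90130213 to 90213465, plus strand), had 162, 176 and 164 CPM in control and 154, 159 and 150 CPM with LPS. These were all lower with LPS, at 92.3% of control (95% interval 86.0% to 99.0%, log2FC -0.12, edgeR adjusted p = 0.0739). Both lay close to the threshold, and Bin1 passed it in 4 and Picalm in 3 of the 18 alternatives. Scaled by total counts, the log2FC was 0.026 for Bin1 (edgeR adjusted p = 0.697) and -0.21 for Picalm (edgeR adjusted p = 0.00217).

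In the reported fit Cd2ap, an adaptor between receptors and actin (ENSMUSG00000061665, chromosome 17 from 42792951 to 42876665, minus strand), was the member with the smallest difference. It had 117, 119 and 118 CPM in control and 116, 114 and 115 CPM in LPS libraries. The groups did not overlap, yet the level with LPS was 97.3% of control (95% interval 91.3% to 104%, edgeR adjusted p = 0.523). Scaled by total counts, Cd2ap was called lower (log2FC -0.14, edgeR adjusted p = 0.0179), and Ptk2b, Grn and Bin1 then had smaller differences. Among 30 tested genes of clathrin-mediated endocytosis 3 rose, 5 fell and 22 were not called (background shares 18.7% and 15.7%). When scaled by total counts, 1 was higher and 11 lower. Sh3kbp1 (CIN85), the relative of Cd2ap, rose from 53.0 to 79.2 CPM (log2FC 0.58, edgeR adjusted p = 2e-06), and Ap2b1 (0.17) and Dab2 (0.10), both clathrin adaptors, rose by less. Hip1, which links clathrin to actin, fell from 159 to 101 CPM (log2FC -0.66), Bin2, the relative of Bin1, from 72.4 to 51.7 CPM (-0.49), and Epn1, an epsin, by a log2FC of -0.20.

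Sorl1, a receptor that carries amyloid precursor protein between endosomes and the Golgi (ENSMUSG00000049313, chromosome 9 from 41964720 to 42124297, minus strand), fell, but its libraries overlapped between the groups. Counts were 409, 601 and 564 in control and 320, 383 and 431 in LPS libraries, or 23.9, 34.1 and 30.3 against 20.3, 23.4 and 26.2 CPM. Control replicate 1 lay below LPS replicate 3. The log2FC was -0.34 (SE 0.12, edgeR adjusted p = 0.0454), at 79.2% of control. The call was lost without control replicate 2 (log2FC -0.23, adjusted p = 0.197), control replicate 3 (-0.32, 0.123), LPS replicate 1 (-0.25, 0.171) or LPS replicate 2 (-0.34, 0.111). The 2 control libraries with the higher Sorl1 were those with the hepatocyte transcripts, where 20 and 17 of the 22 hepatocyte markers were above 3 counts, against 2 in control replicate 1 and 1 to 2 with LPS. Without both, the log2FC was -0.034 (edgeR adjusted p = 0.903). Fibroblast transcripts moved the opposite way, since the libraries lowest in Sorl1 within each group, control replicate 1 and LPS replicate 1, had 11.8 and 7.99 CPM of them and control replicate 2, the highest, 0.340 CPM. Without the 3 libraries that held them the log2FC was -0.47 (edgeR adjusted p = 0.0905). Among 19 tested genes of sorting receptors, retromer and the trans-Golgi network, 3 rose, 6 fell and 10 were not called (background shares 18.7% and 15.7%). Total-count scaling gave 1 higher and 11 lower. Sort1 (sortilin), a sorting receptor that also binds progranulin, fell from 51.7 to 39.9 CPM (log2FC -0.37, edgeR adjusted p = 0.00113), and the retromer-associated Tbc1d5 (-0.26) and Snx2 (-0.25) fell, while Snx27 (0.24), Gga3 (0.19) and Vps26a (0.18) rose.

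Abca7, a transporter that moves phospholipids across membranes (ENSMUSG00000035722, chromosome 10 from 79996494 to 80015572, plus strand), fell from 48.3, 48.5 and 49.4 CPM in the controls to 34.9, 41.3 and 46.7 CPM with LPS. The controls lay within 1 narrow band and the LPS libraries were spread out below it, with LPS replicate 3 close to the controls. The log2FC was -0.25 (SE 0.085, edgeR adjusted p = 0.0344), at 84.1% of control. The call was lost without LPS replicate 1 (log2FC -0.15, adjusted p = 0.146), LPS replicate 2 (-0.25, 0.086), control replicate 2 (-0.26, 0.0579) or control replicate 3 (-0.25, 0.0934), without both of these controls (-0.24, 0.223) and without the 3 libraries with fibroblast transcripts (-0.15, 0.404). Its relative Abca1, which loads cholesterol onto apolipoproteins, rose from 63.2 ± 10.8 to 123 ± 14.4 CPM (log2FC 0.96, SE 0.10, edgeR adjusted p = 3.37e-06). Of 12 tested genes of this transporter and sterol list, 3 rose, 1 fell and 8 were not called (background shares 18.7% and 15.7%). With total counts 3 were higher and 4 lower. Abcg1, a further sterol exporter, rose by a log2FC of 0.26, and Srebf1, a lipid synthesis factor, fell from 217 to 143 CPM (log2FC -0.60).

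Grn, which encodes progranulin, a secreted and lysosomal glycoprotein (ENSMUSG00000034708, chromosome 11 from 102430315 to 102437048, plus strand), was among the top genes by level, above 98.8% of those tested per length. It had 1024, 1038 and 1037 CPM in control and 1108, 1100 and 1059 CPM in LPS libraries. The LPS libraries were all higher, at 105% of control (95% interval 101% to 110%, log2FC 0.076, edgeR adjusted p = 0.0752), and the gene was not called. Scaled by total counts, its log2FC was -0.023. Among 16 tested genes of progranulin processing and the lysosome, 7 rose, 4 fell and 5 were not called (background shares 18.7% and 15.7%). The balance turned to 4 higher and 6 lower with total counts. Slpi, the inhibitor that protects progranulin from elastase, rose from 44.3 to 119 CPM (log2FC 1.43, edgeR adjusted p = 2.73e-09), and the cathepsins Ctsz (0.44) and Ctsl (0.21) rose. Sort1, named above, fell, as did Tfeb, a lysosomal transcription factor (-0.50), and Ctsd (-0.18). Adamts7, a metalloproteinase named after its values were seen, had 0, 5 and 2 counts in control and 24, 51 and 48 in LPS libraries. With so few control counts it passed the filter on low counts through the LPS group alone, so no conclusion is drawn from its change. It is among the 7 genes of this list that rose, so that count rests on it in part.

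Abi3, a subunit of the WAVE actin complex (ENSMUSG00000018381, chromosome 11 from 95830074 to 95842476, minus strand), had 16, 18 and 17 counts in control and 13, 18 and 11 in LPS libraries. The groups overlapped, and the interval of 53.5% to 153% of control is wide at this depth (log2FC -0.14, edgeR adjusted p = 0.792). In the GENCODE M21 annotation 3147 of its 4153 exonic bases, or 75.8%, are also exonic in Zfp652, Gngt2 or Phospho1, and 1006 are its own. How the counting treated strand and reads shared by genes is not given in the sources used here, so its level is uncertain. Among 19 tested genes of the WAVE complex and its activators, 7 rose, 0 fell and 12 were not called (edgeR, background shares 18.7% and 15.7%). DESeq2 also called 0 lower, and 0 were lower at an unadjusted edgeR p under 0.05, but total-count scaling turned the balance to 4 higher and 6 lower. Baiap2 (IRSp53), which recruits the complex, rose with a log2FC of 0.72, Nckap1l (HEM1), its subunit of blood cells, from 183 to 262 CPM (0.51), and Actr3, of the Arp2/3 complex, with 0.33. The relative Abi1 rose with a log2FC of 0.12 (edgeR adjusted p = 0.0451). That call was lost with total-count scaling (0.026, edgeR adjusted p = 0.68) and with DESeq2 (adjusted p = 0.135). Abi2 had -0.16 (edgeR adjusted p = 0.221), which total-count scaling called lower (-0.26, edgeR adjusted p = 0.0454).

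The balance between a member and its nearest relatives was given as the member's share of their summed RPKM in each library, for 9 families. The share of Abca7 in Abca7 and Abca1 was 58.9%, 50.4% and 53.9% in the controls and 33.5%, 32.3% and 35.7% with LPS, a difference of -20.6 percentage points. That of Cd2ap beside Sh3kbp1 went from 58.6% ± 1.62 to 48.0% ± 0.905, and that of Inpp5d beside Inppl1 from 46.6% ± 1.29 to 39.8% ± 0.594 (SD, n = 3). The share of Bin1 beside Bin2 and Amph went from 69.2% ± 1.00 to 77.4% ± 0.816, or from 57.2% ± 1.15 to 67.1% ± 1.03 with the exonic length of Bin1 in GENCODE M21, and that of Ptk2b beside Ptk2 from 79.6% ± 0.168 to 80.9% ± 0.374. In these 5 families the groups did not overlap. The two-sided exact permutation test gave p = 0.1 in each, the smallest that 3 against 3 libraries allow (0.18 after Benjamini-Hochberg adjustment over the 9 families), so this test cannot reach 0.05 here. Plcg2 made up 91.2% of its pair with Plcg1 in control and 91.7% with LPS, and Sorl1 27.5% and 28.1% of its sum with Sort1 and Sorcs1 to Sorcs3. Picalm made up 99.9% beside Snap91 and Abi3 0.799% beside Abi1 and Abi2 in control cells, and the groups overlapped in these 4 families. Of the relatives, Amph, Snap91 and Sorcs1 to Sorcs3 had 3 counts or fewer in every library.

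**Figure D4:**
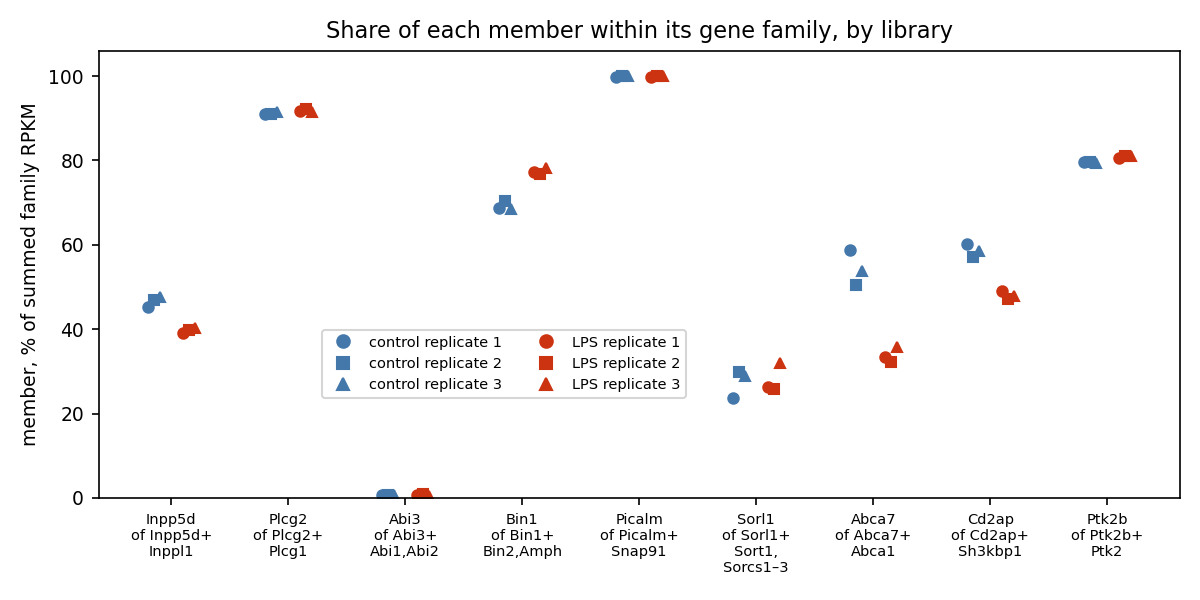
Share of each member in the summed RPKM of itself and its named relatives, per library, controls in blue and LPS in red. Abca7 lies near 54.4% of its pair in control cells and near 33.8% with LPS, and the shares of Plcg2, Picalm, Sorl1 and Abi3 overlap between the groups.

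Other genes at or near late-onset Alzheimer loci also moved both ways, with 9 higher, 6 lower and 10 not called among 25 tested (background shares 18.7% and 15.7%). Their median log2FC was -0.01, and 5 were higher and 7 lower when scaled by total counts. Clu, the extracellular chaperone clusterin, rose with a log2FC of 0.62, and Spi1, which encodes the myeloid factor PU.1, rose from 282 to 424 CPM (0.58, edgeR adjusted p = 5.43e-08). Mef2c, a transcription factor of microglia and neurons, fell from 176 to 94.7 CPM (log2FC -0.89, edgeR adjusted p = 2.31e-09). Apoe, the lipid carrier apolipoprotein E, which hepatocytes also express, had 7.41, 8.67 and 10.1 CPM in the controls and 5.39, 5.79 and 5.24 CPM with LPS (log2FC -0.68, edgeR adjusted p = 0.00268). Without control replicates 2 and 3, which held hepatocyte transcripts, its log2FC was -0.44 (edgeR adjusted p = 0.165), and without the libraries with fibroblast transcripts -0.66 (edgeR adjusted p = 0.103). Over the 170 tested genes of all 8 pathway and locus lists together, 46 rose, 33 fell and 91 were not called (background shares 18.7% and 15.7%). Adamts7 is among those that rose. Scaled by total counts, the balance turned to 29 higher and 62 lower (background share 27.2% lower). Of the genes named from the lists and families, Abcg1, Abi1, Apoe, Csk, Dab2, Epn1, Fyn, Inppl1, Tbc1d5 and Vps26a were not called without control replicates 2 and 3, and among them the log2FC of Apoe alone moved by more than 1.5-fold. Of the named list genes that were still called there, Ap2b1 (0.30) and Ctsl (0.14) moved by more than 1.5-fold. Those genes and Ap2b1, Gga3, Plcg1, Snx27, Sort1, Tfeb and Trem2 were not called in the fit of the 3 libraries without fibroblast transcripts. That fit holds 1 control, so a lost call in it cannot be read apart from the loss of libraries. There the log2FC was -0.53 for Trem2, -0.49 for Plcg1, -0.40 for Sort1 and 0.22 for Snx27. Among the 17 genes only the log2FC of Ap2b1 (0.016) and Tbc1d5 (-0.16) moved by more than 1.5-fold. Scaled by total counts, Abi1 (0.026), Ap2b1 (0.070), Dab2 (0.0063), Gga3 (0.095) and Vps26a (0.078) were not called. In that fit Abcg1 (0.16), Csk (-0.23), Ctsd (-0.28), Ctsl (0.11), Inppl1 (-0.24) and Snx27 (0.15) kept their calls and moved by more than 1.5-fold. DESeq2 did not call Abi1 (adjusted p = 0.135), Fyn (0.0815) or Gga3 (0.0707).

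**Figure D5:**
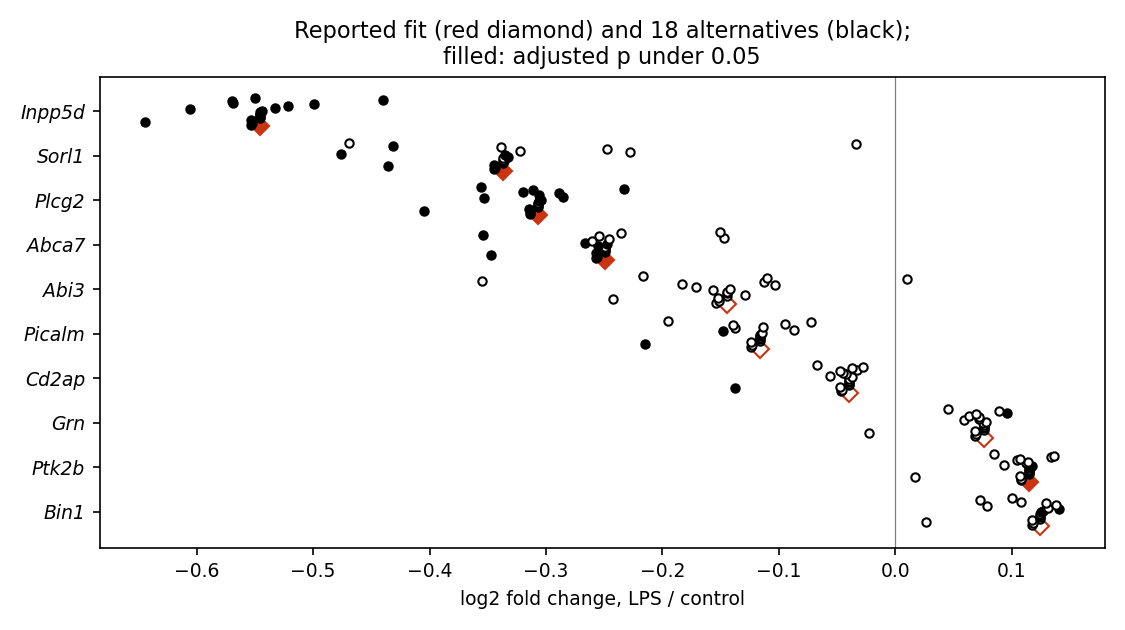
Log2FC of each member in the reported fit (red diamonds) and under 18 alternatives (black circles), filled where the adjusted p was under 0.05. Inpp5d is filled throughout, from -0.64 to -0.44, Plcg2 in 17 of the 18, and Sorl1 spreads from -0.48 to -0.034.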

How the data were processed

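The authors deposited raw counts of reads on each gene, as whole numbers, for the 6 libraries of N9 cells, with sequencing done by Novogene. The submitters' processing notes name featureCounts 1.5.0-p3 and mm10. The aligner and the use of strand are not given in the sources used here. A deposited table of the authors' own DESeq2 comparison, with its fold changes and p-values, was not used. Samples were grouped by their labels. Counts were tested with edgeR 4.0.16 in R 4.3.3 (quasi-likelihood test, TMM, filterByExpr by group, prior count 0.125, Benjamini-Hochberg adjustment over 12296 genes, no replicate term). CPM used the TMM-normalized library sizes, and RPKM also the tabulated gene length. Total counts per library were 16363767 to 17956772. Counts without molecular identifiers are not independent molecules. The scripts were tested on simulated data.

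The members, lists and alternatives were chosen with earlier results of these data known. Genes named beside the members are their relatives and, from each of 8 lists, up to 3 called genes per direction with the largest changes among those with a mean of at least 50 counts. Adamts7 falls outside this rule. One result that this rule names is not reported here. Alternatives were DESeq2 1.42.0, other scalings, filters, prior count and dispersion, glmTreat at 1.2-fold, a replicate block, protein-coding genes alone, libraries left out singly or together, and, for levels, coding transcript length. Exons came from GENCODE M21. Of the members, 9 have the same position there as in the count table, and Bin1 differs in position and length.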

Additional observations from a re-analysis of the deposited data

How the results depend on the processing

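Every member's log2FC kept its sign under the 18 alternatives except for Grn (total-count scaling) and Abi3 (1 fit), neither of them called, and for lost or gained calls the cause was not tested. Members higher numbered 1 as reported, 0 with DESeq2, RLE size factors, total counts, no filter or glmTreat, and 2 with robust dispersion, protein-coding genes or the replicate block. Members lower numbered 4, and 6 with total counts, 5 with the replicate block, 3 with robust dispersion and 1 with glmTreat. Without both control replicates 2 and 3, a choice that rests on the hepatocyte transcripts in them, 0 were higher and 2 lower. Without the 3 libraries with fibroblast transcripts (control replicates 1 and 3, LPS replicate 1), a fit added after the data were seen, 0 members were higher and 2 lower, with Sorl1 at -0.47, Abca7 at -0.15 and Ptk2b at 0.085 not called, 879 of all genes higher and 458 lower, and 23 and 11 of the list genes. These fits each hold 1 control, so a lost call in them cannot be read apart from the loss of libraries. With each library left out in turn, 0 to 1 members were higher and 2 to 5 lower. The log2FC then ran from 0.079 to 0.14 for Bin1, -0.15 to -0.087 for Picalm, -0.48 to -0.23 for Sorl1, -0.35 to -0.15 for Abca7, 0.094 to 0.13 for Ptk2b and 0.059 to 0.096 for Grn. Calls were gained by Bin1 and Picalm without control replicate 1 (adjusted p = 0.0402 and 0.0321) and by Grn without LPS replicate 3 (0.0464). Ptk2b was not called with DESeq2 (0.11), RLE (0.11), total counts (0.017), no filter (0.11), glmTreat (0.11) or without both controls (0.14). Picalm was called under total counts (-0.21) and Cd2ap too (-0.14). Bin1 was called with robust dispersion (0.12) and protein-coding genes alone (0.13). Sorl1 was not called with robust dispersion (-0.34), glmTreat (-0.34) or without both controls (-0.034), Abca7 not with glmTreat (-0.25) or without both controls (-0.24), and Plcg2 not with glmTreat (-0.31). With the replicate block, Bin1 (0.13, adjusted p = 0.0436) and Picalm (-0.12, 0.037) were called and no call was lost. Deviations of same-numbered libraries correlated at 0.131, 0.048 and 0.0049, so the samples share only a number. Scaling by total counts moved the median log2FC of all genes by -0.098 and the share of higher among calls from 54.3% to 31.3%, with 1520 genes higher and 3342 lower against 2294 and 1927 as reported, and 29 and 62 against 46 and 33 genes of the 8 lists. With glmTreat these were 1026 and 616 genes and 20 and 13 list genes, and without both controls 1151 genes and 19 list genes were lower. On the CPM scale the differences in family share were 0.82 points for Plcg2 and 1.73 for Ptk2b. Depth limits Abi3, with 11 to 18 counts per library.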
